A study of Danio rerio with 6 samples.

Results

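A set of 10 genes of embryonic red cells was followed in hand2 mutant zebrafish embryos and in their siblings. They were taken by name: the alpha-type globins hbae3 and hbae1.1, the beta-type globins hbbe1.1, hbbe2 and hbbe3, the haem synthesis genes alas2, urod and fech, the membrane gene slc4a1a and the carbonic anhydrase gene cahz. The names were chosen with earlier results of these data known. Counts over them, set below beside shares of all tested probe sets, are therefore description only. Of these 10 genes, 8 had a probe set of their own, and hbae3 had 2, which gave 9 probe sets out of 15502 on the array other than controls. The array's annotation placed hbae1.1 and hbbe1.1 only on 3 probe sets that also list near-identical neighbouring copies, so those are described under all their gene names and kept out of the counts. All 9 probe sets listed for 1 gene passed the intensity filter, slc4a1a through its mutant arrays. The gene hbae3 enters the counts with both of its probe sets. The name of the second marks it as matching more than 1 transcript, though the annotation lists hbae3 alone.

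RNA of whole embryos at 19 hours post fertilization was hybridised to 6 one-colour arrays, 3 per genotype. The mutants carried the hanS6 allele of hand2, a transcription factor gene needed for heart, pharyngeal arch and fin development, and came with their wild-type siblings from 3 crosses of heterozygous fish. Each array held a pool of 10 to 25 embryos raised at 28.5 degrees Celsius, and the genotypes were told apart by heart expression of Tg(myl7:egfp), so the wild-type pools can hold heterozygous embryos. As a check of the labels, the hand2 signal was 349, 448 and 292 on the sibling arrays and 52.8, 50.9 and 45.1 on the mutant arrays. The genotypes did not overlap for hand2, the mutant arrays were at background, and against the Tag controls, probes for sequences foreign to the fish, the signal was at least 4.35-fold lower. The fit gave a log2 difference, taken here and below as log2(signal + 16), mutant minus sibling, of -2.51 ± 0.21 (SE; limma, adjusted p = 0.00509). Without wild-type replicate 1 or 2 its adjusted p was 0.0604 or 0.0536.

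The first red cells of the zebrafish form in the posterior lateral plate mesoderm under transcription factors such as Gata1a, Tal1 and Lmo2, and then fill with haemoglobin. Haemoglobin joins alpha and beta globin chains to haem, which is built by a chain of enzymes that starts with Alas2 in red cells and ends with Fech. In fish with defects in alas2, urod, fech or slc4a1a red cells are pale, sensitive to light or misshapen. In the RefSeq gene table the hbae1, hbbe1 and hbae3 genes follow each other in 1 cluster, with 5 coding genes, all of them globins, between hbbe1.1 and hbae3. The genes hbbe2 and hbbe3 lie next to each other elsewhere, with 0 coding genes between them.

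The globins, alas2 and urod had higher signal in the mutant pools of replicates 1 and 2 and close to sibling signal in that of replicate 3, while slc4a1a, cahz and fech departed from this in different ways. The globins with a probe set of their own reached between 4.66 and 5.99 times the sibling signal at replicate 1, between 1.47 and 2.23 times at replicate 2 and between 0.93 and 1.03 times at replicate 3. For each of these probe sets wild-type replicate 1 was the lowest sibling array. Their mean log2 difference at replicate 1 was 2.28 against that array and 2.03 against the sibling mean. Over all 6 arrays none of the 9 probe sets passed the test across the array: 0 had an adjusted p under 0.05 (limma), where 0.00860% of the 11626 tested probe sets did, hand2 alone. At an unadjusted p under 0.05, 5 of the 9 were higher in the mutant, beside 2.0% of the tested probe sets. The 5 were both probe sets of hbae3 and those of hbbe3, alas2 and slc4a1a. Since slc4a1a passed the filter only through its mutant arrays, it adds no support to this or to later counts of the 9. With the replicate number as a block, again 0 of the 9 passed and 7 were higher at an unadjusted p under 0.05, beside 4.82%. The median log2 difference of the 9 was 0.89, beside 0.02 for all tested probe sets. All 9 fitted values were above 0, beside 53.8% of the tested probe sets, and that of fech turned negative without wild-type replicate 3 or mutant replicate 1. Embryos were hybridised whole, so more red cells and more RNA per red cell cannot be told apart.

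**Figure D1:**
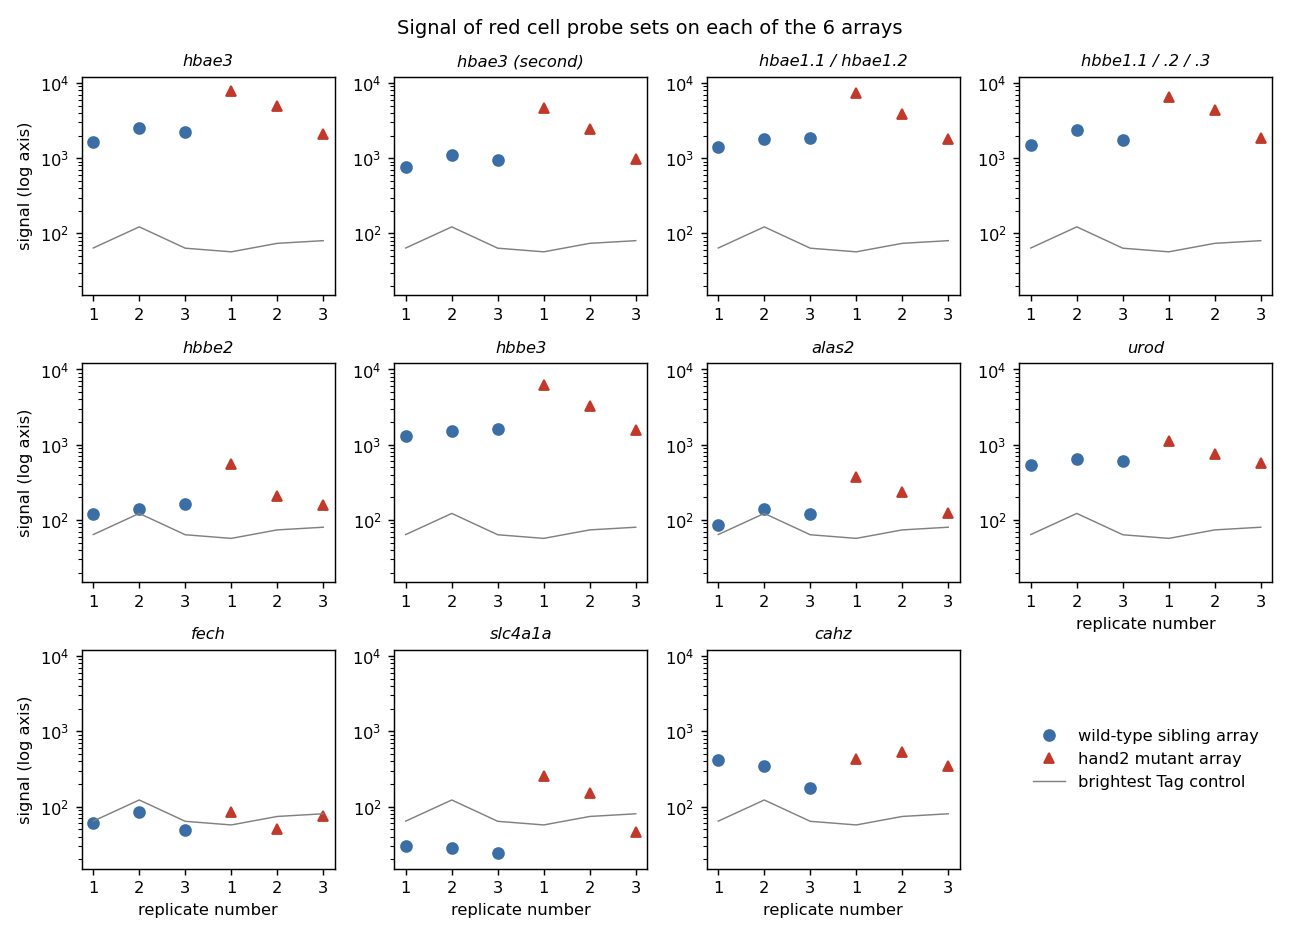
Signal (log axis) of the 11 tested red cell probe sets on each array, by replicate number: circles are wild-type sibling arrays, triangles hand2 mutant arrays, and the grey line joins the brightest Tag control probe set of each array. For the globins and alas2, mutant replicates 1 and 2 stand above all siblings and mutant replicate 3 lies near them; fech stays near the control line on all 6 arrays.

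Among the globins, hbae3, an embryonic alpha chain, had signals of 1644, 2523 and 2249 on the sibling arrays and 7812, 4913 and 2086 on the mutant arrays. Replicates 1 and 2 of the mutant were above every sibling array, and replicate 3 lay within the siblings' range. Sibling arrays averaged 2139 ± 450 and mutant arrays 4937 ± 2863 (SD, n = 3 each). The log2 difference from the fit was 1.03 ± 0.40 (SE; limma, adjusted p = 0.942). The other probe set of hbae3, whose name marks it as matching more than 1 transcript, gave 763, 1104 and 953 in siblings and 4574, 2459 and 977 in mutants. It differed by 1.25 ± 0.44 on the log2 scale (SE; limma, adjusted p = 0.942), and its mutant replicate 3 again lay within the siblings' range. The log2 distance between the hbae3 probe sets was 1.09 to 1.22 on the sibling arrays and smallest, 0.77, on mutant replicate 1.

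The beta chain gene hbbe3 gave signals of 1303, 1503 and 1639 in siblings and 6258, 3270 and 1554 in mutants. Its means were 1482 ± 169 and 3694 ± 2380 (SD, n = 3 each), and its fitted log2 difference was 1.1 ± 0.40 (SE; limma, adjusted p = 0.942). The same 2 mutant arrays were above all siblings and the other was among them. Its neighbour hbbe2 was read at 119, 140 and 164 in siblings and 557, 207 and 158 in mutants, with a log2 difference of 0.85 ± 0.39 (SE; limma, adjusted p = 0.942). For hbbe2 the second mutant array was nearer to the siblings: mutant replicate 1 exceeded replicate 2 by 1.36 on the log2 scale, against 0.67 to 0.93 for the probe sets of hbae3 and hbbe3.

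Of the 3 probe sets shared by globin copies, the 2 that were tested had the same order of mutant arrays. The one listed for hbae1.1 and hbae1.2 had signals of 1421, 1814 and 1875 in siblings and 7434, 3823 and 1793 in mutants. The one listed for hbbe1.1, hbbe1.2 and hbbe1.3 had 1479, 2366 and 1754 in siblings and 6583, 4328 and 1878 in mutants. Which of the copies gave these signals cannot be told from the array. A further probe set for hbae1.1 and hbae1.2 was left out by the filter, and did not have this order: its signals were 36.5, 41.8 and 35.8 in siblings and 40.1, 89.0 and 18 in mutants. Only mutant replicate 2 was above its Tag control there. Taken relative to their sibling means, the 6 tested globin probe sets lay within -0.01 to 0.16 (log2) on mutant replicate 3, within 0.51 to 1.39 on mutant replicate 2 and within 1.84 to 2.28 on mutant replicate 1. On the sibling arrays they lay within -0.35 to 0.37.

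The adult-type globins that could be read singly stayed at background. The alpha gene hbaa1 had signals of 11 to 23.6 in siblings and 31.4 to 41.2 in mutants, and the beta gene hbba2 had 2.6 to 4.6 and 2.0 to 2.9. All of these lay below the brightest Tag control of their array, which ran from 57.0 to 122.3, so no size is given for either.

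Of the haem synthesis genes, alas2, which encodes the first enzyme of the pathway in red cells, followed the globins. Its signal was 85.4, 141 and 119 in siblings and 373, 232 and 124 in mutants. Mutant replicates 1 and 2 were above all siblings and mutant replicate 3 lay between them. The fitted log2 difference was 0.89 ± 0.35 (SE; limma, adjusted p = 0.942). The gene urod, for uroporphyrinogen decarboxylase, had the same order in a narrower range, with signals of 544, 646 and 602 in siblings and 1119, 761 and 566 in mutants. Its log2 difference was 0.39 ± 0.23 (SE; limma, adjusted p = 0.942), and 0.072 without both arrays of replicate 1. The gene of the last enzyme, fech, did not share this order: it had 60.3, 84.2 and 49.4 in siblings and 83.7, 51.0 and 74.2 in mutants. These groups overlapped, 5 of its 6 values lay at or below the Tag controls, and its log2 difference was 0.09 ± 0.24 (SE; limma, adjusted p = 0.978).

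The remaining haem synthesis genes gave 1 more with the globin order. The gene cpox, for coproporphyrinogen oxidase, had signals of 677, 840 and 818 in siblings and 1693, 1208 and 679 in mutants, with a log2 difference of 0.52 ± 0.28 (SE; limma, adjusted p = 0.942). In contrast alas1, the form of the first enzyme used outside red cells, was read at 1582, 1833 and 2017 in siblings and 1747, 1635 and 1866 in mutants, a log2 difference of -0.04 ± 0.14 (SE). For uros and alad the differences were 0.02 ± 0.20 and 0.22 ± 0.17 (SE). Of the 7 haem synthesis genes measured, 6 had fitted values above 0 and 1 below, beside 53.8% of the tested probe sets above 0. None passed (0, limma), and 1, alas2, was higher at an unadjusted p under 0.05, beside 2.0%. The list's median was 0.22, with 0.12 when mutant replicate 1 was left out and 0.14 with a common median.

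The anion exchanger gene slc4a1a, whose product carries chloride and bicarbonate across the red cell membrane and anchors its skeleton, had a fitted difference that depended on the offset added before the logarithm. Its signals were 29.9, 28.1 and 23.9 in siblings and 255, 151 and 46.2 in mutants. It was the only 1 of the 9 in which every mutant array was above every sibling array, beside 3.71% of the tested probe sets. It passed the filter only through its mutant arrays, so this separation adds no support. The sibling signals and that of mutant replicate 3 lay below the Tag controls. Against those controls slc4a1a was 1.47-fold higher in mutants, which is no strict bound since 1 mutant array was itself at background. The fitted log2 difference was 1.71 ± 0.44 (SE; limma, adjusted p = 0.942) on the scale used here. Adding 1 in place of 16 gave 2.12, and adding 64 gave 1.11, where the second hbae3 probe set, at 1.21, was above it. No exact fold is given, since the sibling signals were at background.

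The gene cahz encodes a carbonic anhydrase of red cells and did not follow the globins. Its signals were 411, 345 and 174 in siblings and 425, 528 and 344 in mutants. The groups overlapped, and the lowest value was wild-type replicate 3. Its log2 differences were 0.05, 0.59 and 0.92 at replicates 1, 2 and 3, where hbae3 had 2.24, 0.96 and -0.11. The fitted difference of 0.52 ± 0.30 (SE; limma, adjusted p = 0.942) was 0.17 without wild-type replicate 3.

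Of the other genes of the red cell membrane and cytosol, epb41b and sptb had the globin order at signals near background. The membrane skeleton gene epb41b had 32.9, 45.1 and 20.7 in siblings and 130, 104 and 24.9 in mutants, with the siblings and mutant replicate 3 below the Tag controls. The erythroid spectrin gene sptb, left out by the filter, had 20.9, 23.6 and 7.6 in siblings and 85.6, 46.0 and 24.6 in mutants, and only mutant replicate 1 exceeded the controls. Of the brighter genes, gpx1a, for a glutathione peroxidase, differed by -0.35 ± 0.17, prdx2, a peroxiredoxin gene, by -0.18 ± 0.18 and blvrb, a biliverdin reductase gene, by -0.21 ± 0.14 on the log2 scale (SE). Of the 9 tested genes of the list, 6 had fitted values above 0 and 3 below, beside 53.8% of the tested probe sets above 0. None passed (0, limma), and 1, slc4a1a, was higher at an unadjusted p under 0.05, beside 2.0%. Both slc4a1a and epb41b passed the filter only through their mutant arrays, so they add no support to these counts of the list. The median was 0.15, and between 0.09 (without mutant replicate 1 or wild-type replicate 3) and 0.34 (without wild-type replicate 1) with 1 array left out, or 0.07 with a common median.

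**Figure D2:**
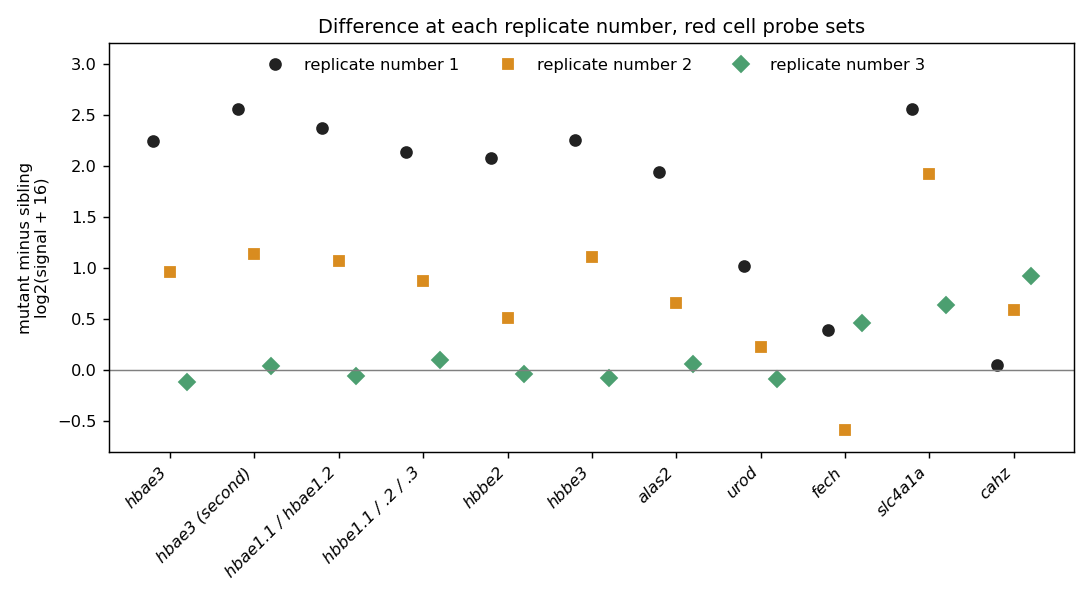
Difference between the mutant and the sibling array of the same replicate number, on the log2(signal + 16) scale, for the 11 tested red cell probe sets. The globins and alas2 are near 2 at number 1, between 0.51 and 1.14 at number 2 and near 0 at number 3, and fech has no common sign. For cahz the difference rises with the number while its sibling signal falls, and its lowest mutant array is replicate 3.

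By role, the mean log2 difference of the 4 globin probe sets was 2.28, 0.93 and -0.05 at replicates 1, 2 and 3. For the 3 haem synthesis probe sets it was 1.12, 0.10 and 0.14, and for slc4a1a and cahz together 1.3, 1.25 and 0.78, with the sibling signals of slc4a1a at background. These means of few genes join unlike ones. Near background, fech had 0.39, -0.58 and 0.46, while alas2 had 1.94, 0.66 and 0.06 and urod 1.02, 0.23 and -0.09, in the globin order. For slc4a1a the values fell, at 2.56, 1.92 and 0.64, and for cahz they rose, at 0.05, 0.59 and 0.92, while its sibling signals fell. After quantile normalization the globin values were 2.34, 0.96 and -0.06, and with a common median 2.24, 0.83 and -0.14, so the globins kept this order under each scaling. A difference of at least 1 on the log2 scale was met by 7 of the 9 probe sets at replicate 1, beside 0.886% of the tested probe sets, and by 3 of the 9 at replicate 2, beside 3.45%. At replicate 3 it was met by 0 of the 9, beside 0.499%. These are differences between single pools and have no replicate check.

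Apart from cahz and fech, the red cell genes had a wider range over the mutant pools than over the sibling pools. The log2 range over the 3 mutant arrays was at least 1 in 6 of the 9 probe sets, beside 7.98% of those tested, and over the 3 sibling arrays in 1 of the 9, cahz, beside 4.88%. For the globins the range was 1.72 to 2.21 in mutants and 0.33 to 0.61 in siblings, where the median over all tested probe sets was 0.42 and 0.40. In the same 6 probe sets mutant replicate 1 exceeded mutant replicate 3 by at least 1, which 2.01% of the tested probe sets did. Without mutant replicate 3, 4 of the 9 passed over the whole array, beside 0.172% of the tested probe sets (limma): the probe sets of hbae3 with adjusted p = 0.0468 and 0.0347, hbbe3 with adjusted p = 0.0475 and slc4a1a with adjusted p = 0.0212. Of these slc4a1a had passed the filter only through its mutant arrays, with all siblings at background, so its pass adds no support. The array left out was the mutant array on which the globins were nearest to the siblings. The other passes thus follow from the order described above and are no separate support. In that fit the log2 differences were 1.55 and 1.83 for hbae3, 1.61 for hbbe3 and 2.30 for slc4a1a. Of the 9 probe sets, 8 then had both mutant arrays above all siblings, beside 15.3% of the tested probe sets. Without mutant replicate 1 none passed, and the median difference of the 9 was 0.53. The log2 difference was then 0.60 and 0.73 for the probe sets of hbae3, 0.61 for hbbe3, 0.34 for hbbe2, 0.53 for alas2, 0.14 for urod and 1.24 for slc4a1a.

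Of the genes that direct red cell formation, drl, tal1 and lmo2 had a signal on mutant replicate 2 at least 0.5 (log2) above mutant replicate 1. These were 3 of the 14 tested, beside 9.76% of all tested probe sets. In all, 5 of the 14 had their highest signal of the 6 arrays on mutant replicate 2 and 7 had it on mutant replicate 1. The share of all tested probe sets was not counted for the highest array, so these counts of 5 and 7 are description only. The gene drl encodes a zinc finger protein of the lateral plate mesoderm, from which blood forms, and had signals of 89.5, 80.8 and 61.1 in siblings and 360, 816 and 95.4 in mutants. All mutant arrays were above all siblings, 2 sibling arrays were at background, and mutant replicate 2 was highest. Its log2 difference was 1.82 ± 0.58 (SE; limma, adjusted p = 0.942), and it passed without mutant replicate 3 (adjusted p = 0.0287), its mutant array nearest to the siblings. For tal1, a factor needed for all blood lineages, the signals were 81.2, 76.3 and 40.6 in siblings and 163, 288 and 49.1 in mutants. The gene of its partner lmo2 had 151, 111 and 107 in siblings and 174, 295 and 136 in mutants. Both were highest on mutant replicate 2 and overlapped between the genotypes, and for tal1 2 sibling arrays and mutant replicate 3 were at background.

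The gene gata1a, for the factor that switches on globin and haem genes, was at background in siblings, at 44.6, 46.5 and 48.9, and had 92.6, 85.6 and 39.2 in mutants. Its mutant replicates 1 and 2 were level within 0.10 on the log2 scale. Replicate 3 was at background like the siblings, so no direction is given between them. The red cell factor gene klf1 was left out by the filter. It was at background on 5 arrays, with signals of 3.8 to 33.5, and had 443 on mutant replicate 2.

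**Figure D3:**
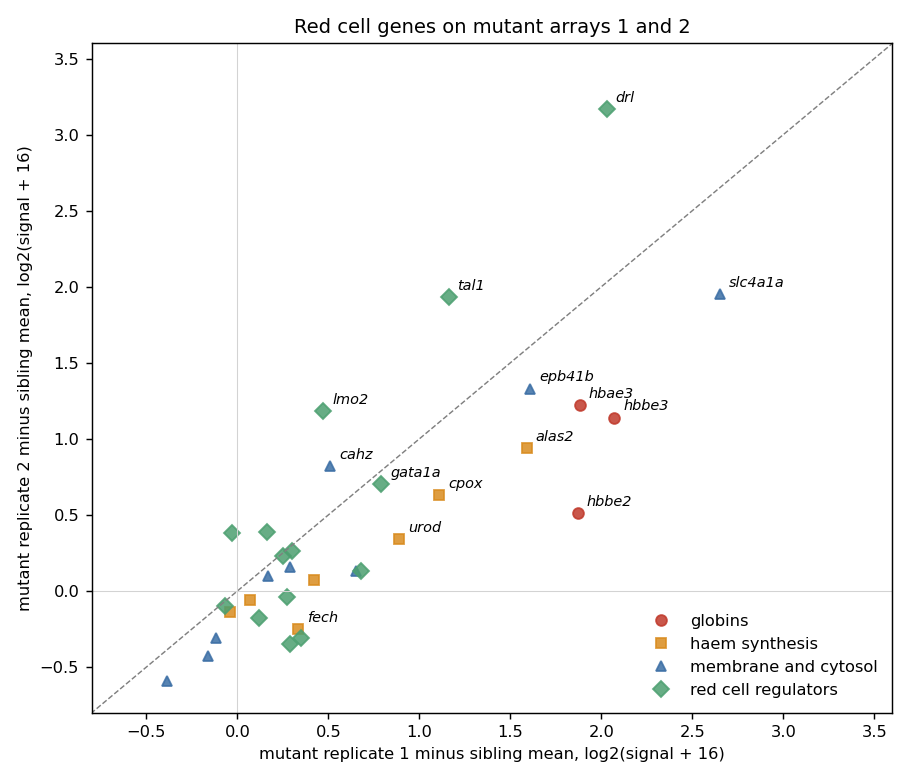
Each point is a tested gene of the globin, haem synthesis, membrane and cytosol or regulator list, placed by its log2(signal + 16) on mutant replicate 1 (horizontal) and mutant replicate 2 (vertical), both minus the sibling mean; the dashed line marks equal values. Globins, alas2, cpox and slc4a1a lie below the line, and drl, tal1 and lmo2 above it.

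Mutant replicate 1 exceeded mutant replicate 2 by at least 0.5 on the log2 scale in 8 of the 9 red cell probe sets, beside 9.01% of the tested probe sets. The 8 include fech, at 0.57, whose signal on mutant replicate 2 was at background. The reverse, replicate 2 above replicate 1 by at least 0.5, held for 0 of the 9 and for 3 of the 14 tested regulators, beside 9.76%. Those 3 were drl, tal1 and lmo2, and 3 other regulators, klf17, tcf3a and cbfb, had replicate 1 higher by that much. Over the 14 tested regulators 10 had fitted values above 0 and 4 below, beside 53.8% of the tested probe sets above 0. None passed (0, limma), and 1, drl, was higher at an unadjusted p under 0.05, beside 2.0%. The median was 0.12. Leaving out wild-type replicate 3 made that median 0.06, leaving out mutant replicate 3 made it 0.26, and a common median made it 0.04. Each of these contrasts sets 1 pool against another, so the difference between the gene groups was not tested.

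Genes of iron supply did not share the globin order as a list. Of 8 tested, 5 had fitted values above 0 and 3 below, beside 53.8% of the tested probe sets above 0. None passed (0, limma), and 1, aco1, was higher at an unadjusted p under 0.05, beside 2.0%. The median was 0.02, or between -0.06 and 0.08 with 1 array left out and -0.06 with a common median. The gene aco1, for a cytosolic aconitase that senses iron, had 203, 215 and 203 in siblings and 245, 436 and 266 in mutants, a log2 difference of 0.53 ± 0.23 (SE; limma, adjusted p = 0.942). The ferritin genes fth1a and fthl27 differed by -0.25 ± 0.16 and -0.20 ± 0.16 and the transferrin gene tfa by 0.12 ± 0.14 (SE). The mitochondrial iron importer gene slc25a37 was at background on all 6 arrays.

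Besides the 10 genes themselves, the 8 genes with the profile most like the globins were, in order, usp13, atp1a1a.3, cdh15, ttn.2, atp1a1a.4, myhz1.3, cpox and epb41b. Likeness was the root mean square distance over the 6 arrays between a gene's log2 values, centred on their mean, and the centred mean of the globins. It was 0.230 for usp13 and 0.336 for epb41b, where the median over 7356 genes was 0.808. By the same measure alas2 ranked among the globins themselves, between hbae3 and hbbe2, with a distance of 0.181, while slc4a1a had 0.391, urod 0.445, cahz 0.724 and fech 0.759. The nearest gene, usp13, for a ubiquitin-specific protease, had 205, 237 and 316 in siblings and 806, 487 and 183 in mutants. Among others, the list holds the muscle genes ttn.2, for titin, and myhz1.3, for a fast myosin heavy chain, and the sodium pump genes atp1a1a.3 and atp1a1a.4. Of these, myhz1.3 and atp1a1a.4 passed without mutant replicate 3 (limma, adjusted p = 0.0212 and 0.0287), like some of the red cell probe sets. The 8 genes were picked for the globin profile, in which mutant replicate 3 is near the siblings. These passes thus follow in part from that choice and are no separate support. Both cdh15 and epb41b passed the filter only through their mutant arrays, with all siblings at background. For atp1a1a.4 the signals were 204, 233 and 208 in siblings and 632, 619 and 285 in mutants.

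Markers of skeletal muscle and epidermis moved with the pools as well, while the median of the heart muscle markers was below 0 at each replicate number. Of 16 tested skeletal muscle genes 14 had fitted values above 0, beside 53.8% of the tested probe sets. The median difference of these 16 was 0.60, 0.60 and -0.03 at replicates 1, 2 and 3. The summed signal of this list was 29638 to 38333 on the sibling arrays and 46421, 41527 and 28390 on the mutant arrays. The list was led by neb, klhl41b, tnni2b.1 and myod1, and 5 genes were higher at an unadjusted p under 0.05, beside 2.0% of the tested probe sets. All sibling arrays and mutant replicate 3 were at background for neb, and 2 sibling arrays and mutant replicate 3 for myod1. The list as a whole also depended on single arrays. Its median over all arrays was 0.46; it became 0.23 when mutant replicate 1 was left out and 0.70 when mutant replicate 3 was. Of 11 tested epidermis genes 10 had values below 0 and 1 above, beside 53.8% of the tested probe sets above 0. Their medians at replicates 1, 2 and 3 were -0.31, -0.39 and 0.08. The median over all arrays was -0.15, or -0.26 to -0.13 with 1 array left out. It was lowest without mutant replicate 3, and -0.23 leaving out wild-type replicate 1. After quantile normalization it was -0.06, and with a common median -0.23. Summed signals of the list were 83983 to 100315 in siblings and 69851, 68490 and 93034 in mutants. The keratin krt17 had the smallest p and the only 1 under 0.05 unadjusted, beside 1.03% of the tested probe sets lower at that level. Of 6 tested heart muscle genes 4 had values below 0 and 2 above, beside 53.8% of the tested probe sets above 0. Their medians were -0.89, -0.66 and -0.95, and the median over all arrays was -0.96, or -0.54 without mutant replicate 3. The 4 (myl7, myh7, cmlc1 and tnnt2a) had an unadjusted p under 0.05, beside 1.03% of the tested probe sets that were lower at that level. The others, the factor genes gata5 and gata6, differed by 0.19 ± 0.30 and 0.50 ± 0.30 (SE), and gata6 was above 0 at each number. The genotypes were told apart by heart expression of Tg(myl7:egfp). A lower signal of heart muscle genes is thus not independent of that sorting. In none of these lists did a gene pass (0, limma). Their part in the red cell differences was not tested.

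Of the cell types that share an origin with red cells, 7 of 7 tested endothelial genes had fitted values above 0, beside 53.8% of the tested probe sets. The medians of this list were 0.41, 0.32 and 0.32. Among its genes fli1 had 213, 138 and 93.2 in siblings and 506, 418 and 120 in mutants. The 1 gene higher at an unadjusted p under 0.05, beside 2.0% of the tested probe sets, was ets1. It had 55.7, 47.9 and 36.8 in siblings and 153, 121 and 68.1 in mutants. For ets1 all sibling arrays and mutant replicate 3 were at background. The gene tie1 passed the filter only through its mutant arrays, so its sign adds no support. The list's median of 0.63 was 0.19 without wild-type replicate 3. Of 5 tested myeloid genes 4 had values above 0, beside 53.8% of the tested probe sets. The medians of these genes were 0.30, 0.13 and -0.07, and 0 of them had an unadjusted p under 0.05. Their overall median was 0.20, with 0.11 to 0.35 when 1 array was left out and 0.12 with a common median. The genes mpx, csf1ra and marco, 3 of the 8 measured, were at background on all 6 arrays. For the yolk syncytial layer 3 of 7 were above 0 and 4 were below, beside 53.8% of the tested probe sets above 0, and 0 had an unadjusted p under 0.05. The median was -0.04, or -0.19 to 0.16 with 1 array left out, 0.04 after quantile normalization and -0.12 with a common median. None passed in any of these 3 lists (0, limma).

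**Figure D4:**
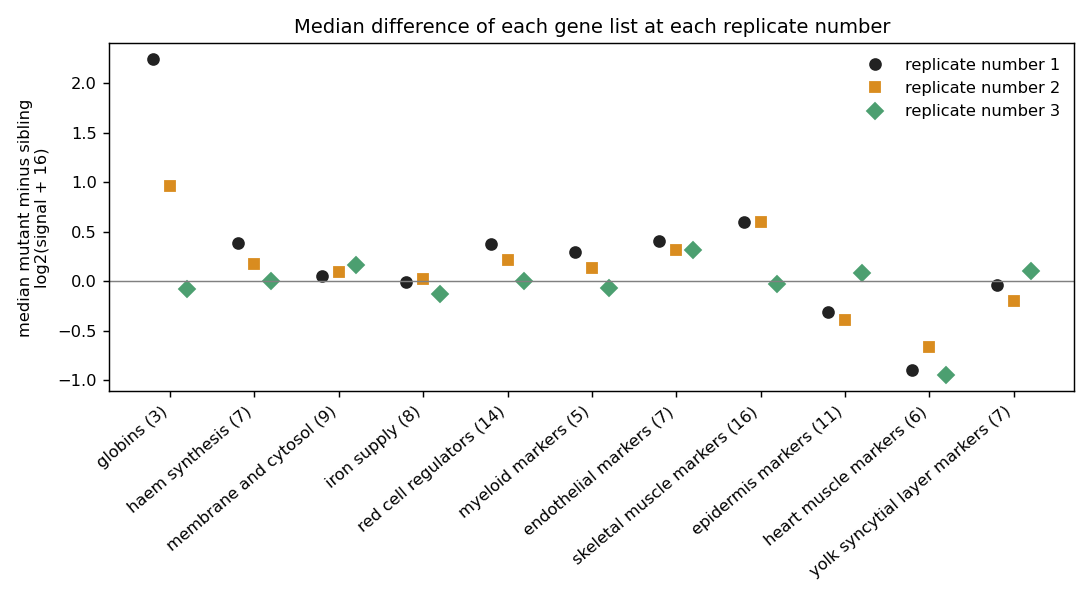
Median difference between the mutant and the sibling array of the same replicate number (log2 scale) for each gene list, with the number of tested genes in brackets. Globins stand at 2.24, 0.96 and -0.08, skeletal muscle at 0.60, 0.60 and -0.03 and epidermis at -0.31, -0.39 and 0.08, while the heart muscle median is below 0 at all numbers.

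RNA quality was read from control probe sets. The log2 ratio of 3′ to 5′ signal of actc1b was 2.18 on mutant replicate 1, the array with the highest globin signal, and 3.31 to 3.91 on the other 5 arrays. On mutant replicate 2, where the globins were second highest, it was 3.91, the highest of all. The same ratio of gapdh ran from 1.73 on mutant replicate 1 to 2.08 on mutant replicate 3. The part of this in the red cell differences was not tested.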

How the data were processed

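Each probe set has 1 deposited signal intensity per array, on a linear scale, and MAS5 is the tool that the submitters' processing notes name. Detection calls were not used here. The mean after trimming 2% at each end was 500.11 to 500.13 on every array, and no further scaling was applied. Controls (115) were removed, the lowest 25% by mean log2(signal + 16) left out, and genotype fitted to the remaining 11626 probe sets by limma (version 3.58.1, R version 4.3.3) using lmFit and a trended eBayes, 2-sided, with Benjamini-Hochberg adjustment over all. The offset understates differences of dim genes. An array was at background for a gene at or below its brightest of 17 Tag controls, a rule chosen after results were seen. Array number, 3 against 3, limits the precision. A gene was represented by its brightest single-gene probe set, with symbols updated through RefSeq (GRCz12tu). The labels do not say that the pools are independent beyond the 3 crosses.

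The red cell genes, lists (globins, haem synthesis, membrane and cytosol, iron supply, red cell regulators, myeloid, endothelial, skeletal muscle, epidermis, heart muscle, yolk syncytial layer) and tests were chosen with earlier results of these data known. Named genes were the 10, hand2, up to 4 of smallest p per list, measured genes of the globin, haem synthesis and regulator lists, and the 8 nearest profiles. Outside these rules, sptb, prdx2, blvrb, slc25a37, mpx, csf1ra, marco, gata5 and gata6 were added after their values were seen. Deviations from genotype means correlated between same-numbered arrays at 0.193, 0.119 and 0.482. On this ground the differences by replicate number and the block fit took same-numbered arrays as pairs, which the labels do not state. The main fit had genotype alone, without pairs. Wild-type 1 correlated slightly more, at 0.203, with mutant 2. The fit was run on simulated data as a check of its estimates. Noise there was drawn independently for each probe set and array, so differences shared by many genes of a pool were not covered.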

Additional observations from a re-analysis of the deposited data

How the results depend on the processing

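The median log2 difference of the 9 red cell probe sets, 0.887, stayed above 0 under every alternative run. It was 0.966 and 0.71 with offsets of 1 and 64, 0.81 after quantile normalization, 0.807 with a common median, 1.156 with array weights, 0.939 over the 6 left when the lowest 50% were dropped, and 0.533 to 1.27 with 1 array left out. With the replicate number as a block it was 0.887, and the block changed no call. Leaving out both arrays of a number, chosen after seeing the data, gave 0.424, 1.018 and 1.302 for numbers 1, 2 and 3. The count of these probe sets past the threshold ran from 0 to 4 with 1 array left out, 4 without mutant replicate 3, and was 0 in all other settings. Those higher on every mutant array numbered 1 to 8 with 1 array left out (3 without wild-type replicate 2 or 3, 8 without mutant replicate 3), and 4 and 8 without both arrays of number 2 or 3. Over the array, 0 to 20 probe sets passed with 1 array left out, and 0 without both arrays of any number. With the lowest 50% dropped 0 passed, but that filter also removed hand2, so hand2 was not tested there. For hand2 the difference was -2.651 to -2.356 with 1 array left out and -2.564, -2.372 and -2.6 without number 1, 2 or 3 (adjusted p = 0.396, 0.193 and 0.0714, limma, fewer arrays). The sign of fech turned without wild-type replicate 3 or mutant replicate 1 (-0.05 to 0.257 over single arrays) and without both arrays of number 1 (-0.059) or 3 (-0.098); the cause was not tested. All other red cell probe sets kept their sign. Signals below the Tag controls limit fech, slc4a1a and gata1a.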
